A study of Mus musculus with 8 samples.

Results

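The inner root sheath is the rigid sleeve that surrounds the growing hair shaft inside the follicle, and the companion layer is the single sheet of cells between that sleeve and the outer root sheath. Inner root sheath cells fill with keratin filaments, each built from a type I and a type II keratin chain, and with trichohyalin, a granule protein that is deiminated and cross-linked to harden the sheath. The sheath is made anew in each growth phase of the hair cycle and breaks down above the sebaceous gland duct. Genes of these layers, 9 in all and 9 probe sets among 41345, were followed across 8 arrays: the type I keratins Krt25, Krt26, Krt27 and Krt28, the type II keratins Krt71, Krt72 and Krt73, the companion layer type II keratin Krt75, and Tchh, which encodes trichohyalin. Members were taken by symbol, as probe sets whose platform annotation names only that gene. Each gene had 1 probe set, so 9 of the 22180 genes measured are described.

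The arrays hold total RNA from dorsal skin of male mice, with 1 array per label. WT_CTRL and WT_IMQ name C57BL/6 wild-type skin. The other 6 name the strain B6.Cg-Il22ra1tm1.1Koll/J, called KO in the labels for the IL-22 receptor alpha chain. Without IMQ these are KO_CTRL, KO_CTRL-B and KO_Allo, and with it KO_IMQ, KO_IMQ_B and KO_IMQ_Allo. IMQ stands for imiquimod, a Toll-like receptor agonist whose cream induces psoriasis-like inflammation. Per the labels it was given as 83.3 mg of a 5% cream each day from day 1 to day 7, with vehicle or alloferon, a peptide first described in insects, following after 6 hours. Allo is read as alloferon. The age of the mice, the meaning of the letter B, the cream given for the CTRL labels, and whether the RNA of several of the 4 mice stated per group was pooled on an array are not given in the sources used here. They do not say either if the receptor allele is conditional or which cells carry the change, so KO is a label and need not mean that the receptor was lost. By title, the arrays were read as 4 pairs differing in IMQ alone, called here the WT, KO, KO B and KO Allo pairs. Setting KO_CTRL against KO_IMQ, and KO_CTRL-B against KO_IMQ_B, is an assumption, because B is not explained.

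Values are log2 levels after robust multi-array averaging (RMA), and array medians differed by at most 0.05. The skin label was checked with 9 genes of the interfollicular epidermis, whose median level was 9.95 to 11.23 on the 8 arrays. Il22ra1, the targeted gene, read 8.23 and 8.64 on the WT arrays and 8.59 to 9.40 on the 6 KO arrays. Its probes may lie outside the altered stretch, so the genotype was not checked by it, and every WT or KO direction rests on the labels. Arrays stood apart in tissue content: the median of 15 skeletal muscle genes was 10.66 and 10.97 on WT_CTRL and KO_CTRL against 7.84 to 8.85 on the other 6. KO_Allo also stood apart, with 11.83 for the wound keratin gene Krt6b against 4.67 to 7.49 on the other arrays without IMQ and 12.12 to 12.71 with IMQ. KO_CTRL stood apart in hair genes, as given below.

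Promoter windows of the members are shown first, from 250 bases before to 50 after the annotated start, from RefSeq on GRCm38.p6. A link between their letters and the levels was not tested. All 9 members were matched by symbol. Krt25 to Krt28 lie side by side in the type I keratin cluster on chromosome 11, the 4 type II genes on chromosome 15 and Tchh on chromosome 3. Windows are printed for 5 members: Krt25, Krt71 and Tchh, with some of the widest differences in the KO pair, and Krt72 and Krt75, with the narrowest there. Capitals mark matches on either strand to 6 short motifs. The TATA box was searched as TATAAA. The 2 forms used for factors of the GATA family were AGATAA and, with another first letter, TGATAA. Factors of the LEF/TCF family, which act in Wnt signalling, were searched as CTTTGA and also with a different last letter as CTTTGT. Homeodomain factors were searched as TAATTG.
Krt25, chr11:99322902-99323201, minus strand: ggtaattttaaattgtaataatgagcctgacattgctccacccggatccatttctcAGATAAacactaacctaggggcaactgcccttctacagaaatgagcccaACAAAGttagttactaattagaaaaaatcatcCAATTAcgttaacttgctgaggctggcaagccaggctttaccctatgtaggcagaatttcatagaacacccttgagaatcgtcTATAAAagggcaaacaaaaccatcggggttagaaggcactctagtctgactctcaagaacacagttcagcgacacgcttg
Krt71, chr15:101743048-101743347, minus strand: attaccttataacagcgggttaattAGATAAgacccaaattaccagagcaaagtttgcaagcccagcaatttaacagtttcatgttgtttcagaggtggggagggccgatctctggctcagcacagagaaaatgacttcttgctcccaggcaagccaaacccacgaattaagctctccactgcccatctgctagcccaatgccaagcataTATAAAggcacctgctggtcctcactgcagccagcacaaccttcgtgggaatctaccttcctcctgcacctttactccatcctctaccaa
Tchh, chr3:93442080-93442379, plus strand: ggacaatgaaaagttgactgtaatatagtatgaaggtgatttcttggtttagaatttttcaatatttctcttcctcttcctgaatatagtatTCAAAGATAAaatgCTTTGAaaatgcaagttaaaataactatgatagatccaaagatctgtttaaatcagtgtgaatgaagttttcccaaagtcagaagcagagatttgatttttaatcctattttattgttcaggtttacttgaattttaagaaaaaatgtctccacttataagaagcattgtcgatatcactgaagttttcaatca
Krt72, chr15:101786471-101786770, minus strand: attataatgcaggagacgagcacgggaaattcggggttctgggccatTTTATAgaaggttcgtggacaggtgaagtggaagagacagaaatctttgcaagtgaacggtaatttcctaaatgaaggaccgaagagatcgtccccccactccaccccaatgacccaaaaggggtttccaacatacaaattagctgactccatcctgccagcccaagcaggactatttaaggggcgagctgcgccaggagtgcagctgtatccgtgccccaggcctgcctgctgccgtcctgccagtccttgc
Krt75, chr15:101573855-101574154, minus strand: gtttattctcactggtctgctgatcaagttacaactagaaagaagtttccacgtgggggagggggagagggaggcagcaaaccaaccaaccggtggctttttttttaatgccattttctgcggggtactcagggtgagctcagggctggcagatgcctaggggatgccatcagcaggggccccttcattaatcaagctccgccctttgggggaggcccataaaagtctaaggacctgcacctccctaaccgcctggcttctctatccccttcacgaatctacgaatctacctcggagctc

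TATAAA was found in 7 of 9 member windows, against 13.6% of all 32851 windows. Counted from the gene start, it began at position -30 in Krt25, Krt26, Krt28 and Krt73, at -40 in Krt71 and at -15 in Krt27, while in Krt72 its only match was far upstream on the opposite strand. Tchh and Krt75 held no match to these letters. AGATAA was found in 5 of 9 windows (Krt25, Krt27, Krt71, Krt73 and Tchh; 11.2% of all windows) and TGATAA in 1, Krt27 (9.05%). TAATTG was found in 4 of 9 (Krt25, Krt26, Krt28 and Krt73; 8.0% of all windows), CTTTGA in 2, Krt28 and Tchh (16.0%), and CTTTGT in 1, Krt25 (18.7%). In Tchh a CTTTGA match on the opposite strand overlaps the AGATAA match, which gives a run of 10 capitals. A match describes letters in a window and is not a measured site. After the annotated start, the Tchh window opens with atg, the letters of a start codon. It may thus hold sequence within the gene and not its promoter, so the Tchh entries describe this window only.

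**Figure D1:**
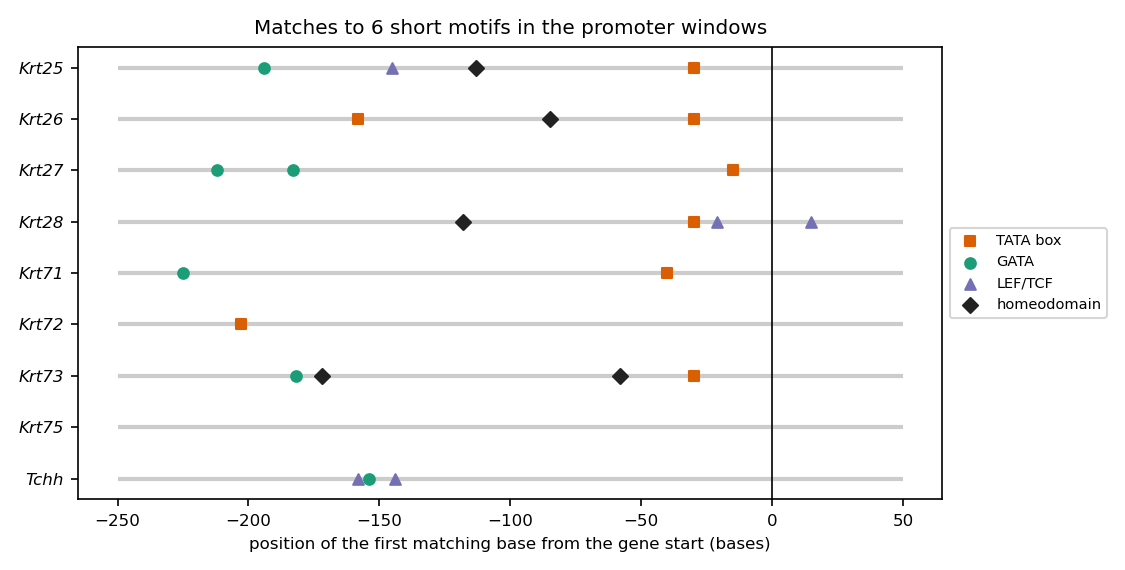
Map of motif matches in the promoter window of each of the 9 genes. The horizontal axis is the position of the first matching base from the gene start in bases, each grey line is 1 window from 250 bases before to 50 after, and symbols stand for the 4 kinds of motif. Orange squares stack at position -30 in 4 of the genes, and the Krt75 line is empty.

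Levels of the sheath and companion layer genes were lower on the imiquimod arrays than on their partners. Each of the 9 was lower with IMQ in 4 of 4 pairs, where 14.3% of all genes were, and 8 of 9 were lower by 1 log2 unit or more in every pair, where 0.162% of all genes were. Over the 4 pairs, 8 of 9 members fell with an adjusted p under 0.05 in limma, where 1.19% of all genes were called lower and 1.9% higher, a direction in which 0 members were called. The median difference over the 9 was -3.05 log2 units, against -0.0078 over all genes. In bulk skin, fewer cells of these layers and less RNA per cell cannot be told apart.

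Tchh, the gene of trichohyalin, read 12.25 on WT_CTRL, 9.77 on KO_CTRL, 12.30 on KO_CTRL-B and 11.55 on KO_Allo, against 7.69 on WT_IMQ, 5.04 on KO_IMQ, 10.57 on KO_IMQ_B and 7.98 on KO_IMQ_Allo. KO_CTRL was the low array without IMQ and KO_IMQ_B the high array with it, and KO_IMQ_B lay above KO_CTRL, so the 2 sets of arrays overlapped. Over the pairs Tchh fell by 3.64 ± 0.47 log2 units, a 12.5-fold difference (n = 4 pairs, adjusted p = 0.0207 in limma). Errors after ± are limma's moderated standard errors, which draw each gene's spread toward that of all genes. The plain SD of the 4 pair differences was 1.38 for Tchh, and 0.763 to 1.51 over the 9 members. It had the widest mean difference of the 9, and only 2 of the 22180 genes had a lower one.

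Among the type I keratins, Krt25 and Krt27 are made in all layers of the inner root sheath. Krt25 read 11.40, 9.29, 11.58 and 10.75 on WT_CTRL, KO_CTRL, KO_CTRL-B and KO_Allo, and 7.76, 5.19, 9.89 and 7.97 on WT_IMQ, KO_IMQ, KO_IMQ_B and KO_IMQ_Allo. Krt27 read 11.46, 8.98, 11.79 and 10.90 on the same arrays without IMQ and 7.19, 5.00, 9.71 and 7.56 on those with it. Both kept the order of arrays seen for Tchh. Krt25 fell by 3.05 ± 0.36 (adjusted p = 0.0177 in limma) and Krt27 fell by 3.42 ± 0.34 log2 units (adjusted p = 0.0133 in limma).

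Krt28, also a general inner root sheath keratin, read 9.78, 8.28, 10.12 and 9.43 without IMQ (WT_CTRL, KO_CTRL, KO_CTRL-B, KO_Allo) and 6.82, 4.87, 8.23 and 7.65 with it (WT_IMQ, KO_IMQ, KO_IMQ_B, KO_IMQ_Allo). It was the single member of 9 whose highest IMQ array lay below its lowest array without IMQ (a difference of -0.06 log2 units), where 5.04% of all genes were so placed. It fell by 2.51 ± 0.28 (adjusted p = 0.0157 in limma). Krt26, a keratin of the sheath cuticle, read 8.96, 5.66, 9.31 and 8.51 without IMQ and 4.53, 3.08, 6.98 and 4.43 with it, with the arrays listed as before. Unlike Tchh, Krt26 read slightly higher on WT_IMQ than on KO_IMQ_Allo. Its KO_IMQ level was higher than only 8.9% of the probe sets on that array, and RMA compresses differences at such dim levels. Krt26 fell by 3.36 ± 0.36 log2 units (adjusted p = 0.0157 in limma).

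**Figure D2:**
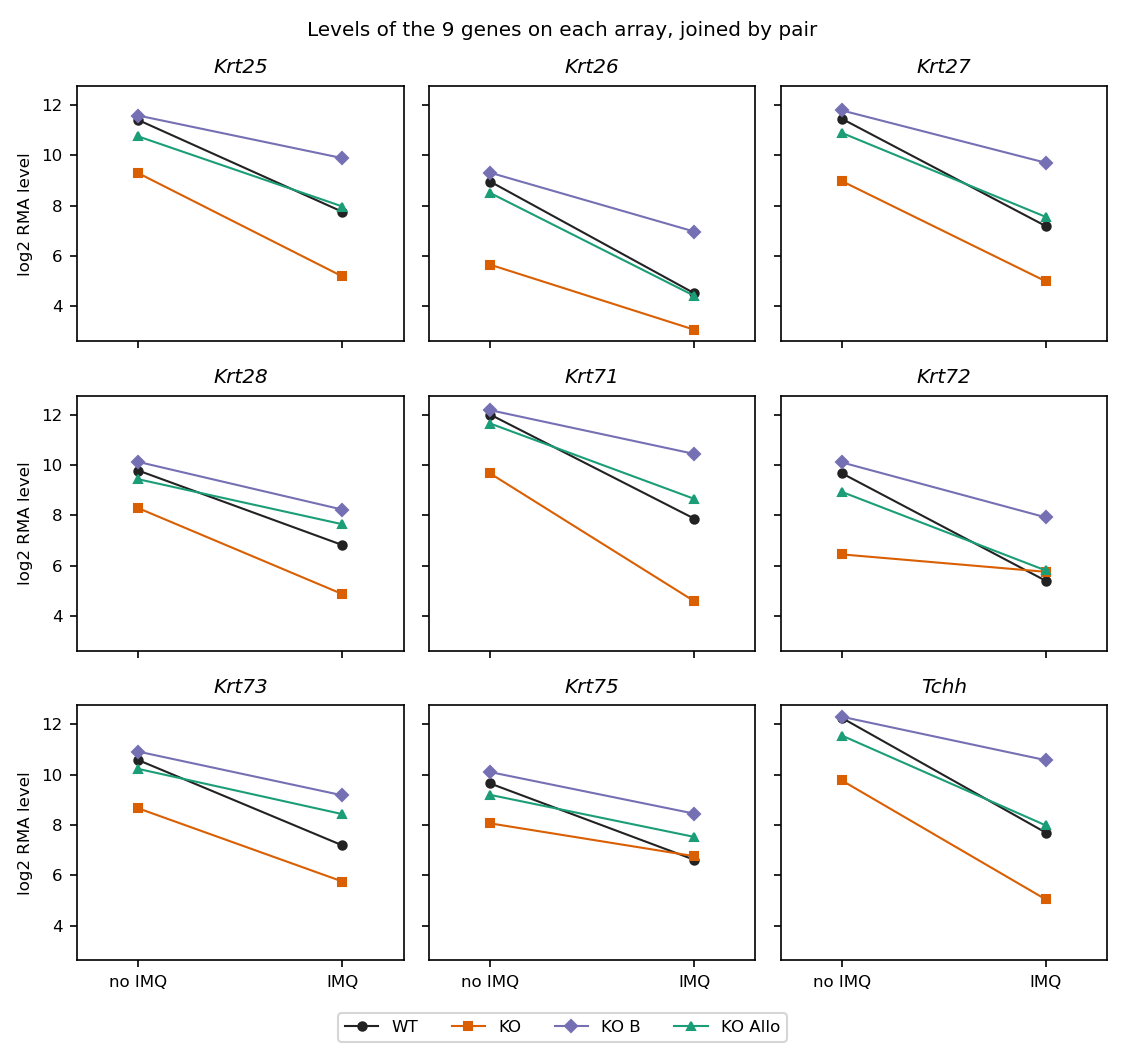
Level of each gene on each array. The vertical axis is the log2 RMA level and is shared by the 9 panels, each point is 1 array, and a line joins the arrays of a pair without and with IMQ. All lines slope down, the KO pair (orange) lies lowest without IMQ, the KO B pair (purple) lies highest with IMQ, and the Krt72 line of the KO pair is nearly flat.

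Among the type II keratins, Krt71 pairs with the type I chains in all layers of the sheath. It read 12.00, 9.66, 12.18 and 11.65 on WT_CTRL, KO_CTRL, KO_CTRL-B and KO_Allo and 7.87, 4.59, 10.44 and 8.66 on WT_IMQ, KO_IMQ, KO_IMQ_B and KO_IMQ_Allo, and fell by 3.48 ± 0.49 log2 units (adjusted p = 0.0250 in limma). Its KO pair differed by -5.07, the widest single-pair difference among the 9 genes, and its KO B pair by -1.74. The Krt71 level on KO_IMQ was higher than only 28.1% of the probe sets on that array. Krt73, a cuticle keratin, read 10.57, 8.66, 10.91 and 10.22 without IMQ and 7.19, 5.75, 9.17 and 8.43 with it. It fell by 2.46 ± 0.29 (adjusted p = 0.0167 in limma).

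Krt72, also of the cuticle, read 9.67, 6.45, 10.10 and 8.93 without IMQ and 5.40, 5.76, 7.92 and 5.81 with it. KO_CTRL differed by -2.48 log2 units from the lowest of the other arrays without IMQ, and the KO pair by only -0.69, whereas the other pairs differed by -4.27 (WT), -2.18 (KO B) and -3.12 (KO Allo). The mean difference was -2.57 ± 0.51 with an adjusted p = 0.0521 in limma, so it did not pass. Without KO_CTRL or KO_IMQ, each of which removes the KO pair, it was -3.19 and passed (adjusted p = 0.0320 in limma).

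Krt75, the companion layer keratin, read 9.65, 8.06, 10.10 and 9.19 on WT_CTRL, KO_CTRL, KO_CTRL-B and KO_Allo and 6.62, 6.76, 8.45 and 7.52 on WT_IMQ, KO_IMQ, KO_IMQ_B and KO_IMQ_Allo. It fell by 1.91 ± 0.27 log2 units (adjusted p = 0.0250 in limma), the narrowest mean difference of the 9. The WT pair differed by -3.03 and the KO, KO B and KO Allo pairs by -1.30, -1.65 and -1.67. Krt72 and Krt75 were the 2 members whose lowest array was WT_IMQ and not KO_IMQ.

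**Figure D3:**
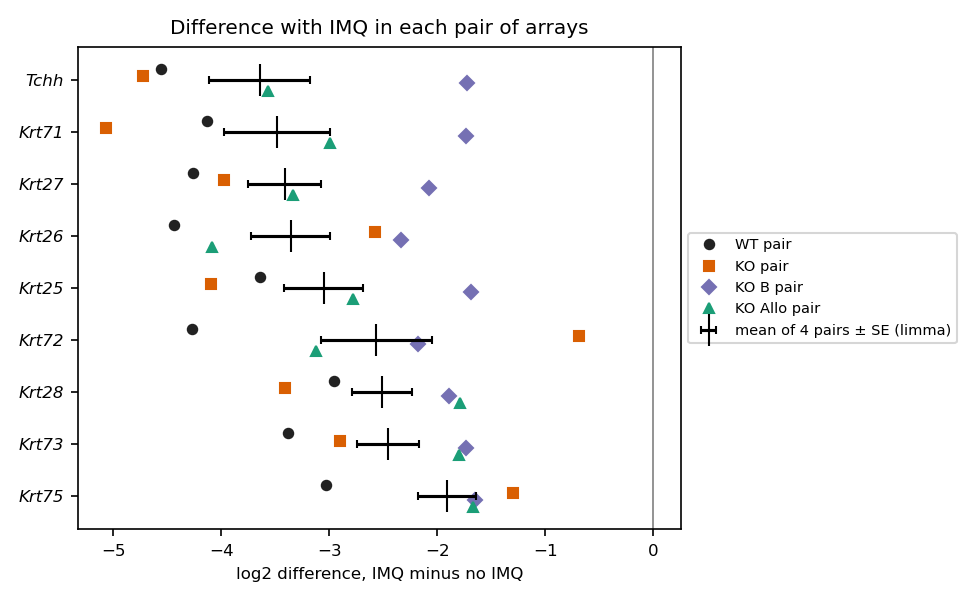
Difference with IMQ for each gene in each pair of arrays, in log2 units on the horizontal axis; coloured symbols are the 4 pairs, and black bars are the mean over pairs with its moderated standard error from limma. Every symbol lies below 0, from -5.07 for Krt71 in the KO pair to -0.69 for Krt72 in the same pair.

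These calls rest on few pairs. All 9 members were lower with IMQ under each of 15 alternatives, which for most of these followed from all 4 pairs being lower. The number of members called depended on the pairs used, each of which drops out when either of its arrays does. It was 0 without the WT_CTRL or the WT_IMQ array, where 0 of all 22180 genes were called. Leaving out KO_CTRL-B or KO_IMQ_B left 2 (Krt27 and Tchh), the only genes called of all 22180. Leaving out an array of the KO pair gave 6, with Krt72 among them and Krt71, Krt73 and Tchh not, where 260 of all genes were called. Leaving out either alloferon array gave 8, where 1307 of all genes were called. The number of members called was 0 without arm levels, where 747 of all genes were called, 190 of them lower. It was also 0 when the B arrays were taken as second KO arrays, where 454 were called, 76 of them lower. Muscle genes moved with IMQ too (15 of 15 lower, summed linear level 7817 to 38650 without IMQ and 5101 to 8821 with it). With their mean level as a covariate the member differences were -3.51 to -1.13, with 0 members called (adjusted p = 0.641 to 0.794 in limma). In that fit 0 of all genes were called.

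The 9 genes kept nearly 1 order over the arrays. KO_CTRL-B was highest, WT_CTRL next and KO_Allo next for 9 of 9, KO_CTRL was the lowest array without IMQ for 9 of 9 (29.3% of all genes), and KO_IMQ_B the highest with IMQ for 9 of 9. For 8 of 9, all but Krt28, KO_IMQ_B lay above KO_CTRL. Over the 8 arrays the Pearson correlation between members ran from 0.853 (Krt71 with Krt72) to 0.998 (Krt25 with Tchh), with a median of 0.970 over 36 gene pairs. These are descriptions over arrays that share labels and tissue content.

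Genes of the hair shaft, the fibre that the sheath encloses, are given beside the members pair by pair. In the KO pair 8 of 9 members were lower with IMQ by 1 log2 unit or more, against 3 of 15 hair shaft keratins and 2 of 51 keratin-associated protein genes, whose products form the matrix around hair keratin filaments, and 492 of all 22180 genes. In the KO B pair, 9 of 9, 15 of 15 and 46 of 51 were, and 287 of all genes. The list medians in the KO pair were -3.41 for the members, -0.44 for the hair shaft keratins and -0.21 for the keratin-associated proteins, and in the KO B pair -1.74, -2.49 and -2.97. In the WT pair they were -4.13, -2.50 and -2.52, with 9 of 9, 14 of 15 and 42 of 51 genes lower by 1 log2 unit or more, and in the KO Allo pair -2.99, -1.52 and -1.47, with 9 of 9, 13 of 15 and 32 of 51. The members thus had the widest median of the 3 lists in the WT, KO and KO Allo pairs and the narrowest in the KO B pair. The levels behind this differ on KO_CTRL: the hair shaft median was 5.71 there and 5.63 on KO_IMQ, while the member median was 8.66 and 5.04. The keratin-associated protein median was 4.49 and 4.16 on these arrays. On WT_IMQ, KO_IMQ_B and KO_IMQ_Allo the hair shaft median was 5.70, 6.54 and 5.72. KO_CTRL thus already read as low as the IMQ arrays for the hair shaft keratins. How far this limited the counts in the KO pair was not tested. Each pair is 1 array against 1, so this difference between lists was not tested.

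**Figure D4:**
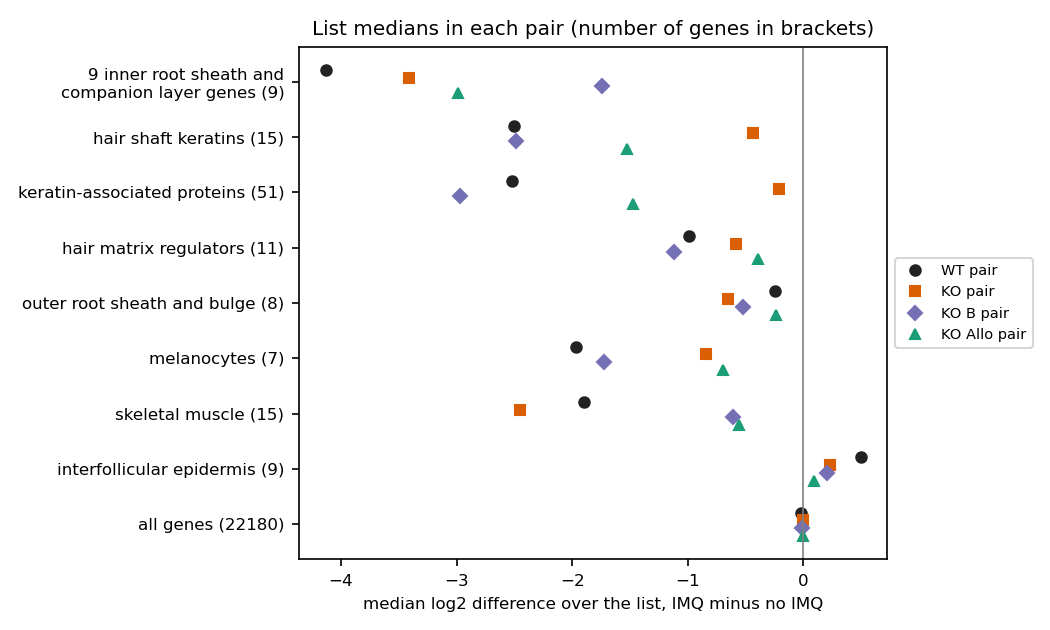
Median log2 difference with IMQ (horizontal axis) in each pair of arrays for gene lists, with the number of measured genes in brackets. In the KO pair (orange) the 9 genes lie at -3.41 and the hair shaft lists near 0; in the KO B pair (purple) the hair shaft lists lie lower than the 9 genes; all genes lie near 0.

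Arrays without IMQ were also compared, as values only. KO_CTRL lay below WT_CTRL for 9 of 9 members, with differences from -1.49 (Krt28) to -3.30 log2 units (Krt26). It lay below each of the other 3 arrays without IMQ by 1 log2 unit or more for 9 of 9, where 0.496% of all genes did. KO_CTRL-B lay above WT_CTRL for 9 of 9, by 0.05 (Tchh) to 0.45 (Krt75), so the direction of KO against WT turned with the KO array chosen. Hair shaft keratins showed a median of -2.31 for KO_CTRL minus WT_CTRL, beside -2.34 for the members and 0.0048 for all genes.

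With IMQ, KO_IMQ lay below WT_IMQ for 7 of 9 members, with differences down to -3.28 log2 units (Krt71), and above it for Krt72 and Krt75. Besides Krt26, several of these read below the middle of the KO_IMQ array. Krt71, Krt28, Krt27, Tchh and Krt25 were higher there than 28.1%, 33.4%, 35.9%, 36.8% and 39.7% of the probe sets. KO_IMQ_B lay above WT_IMQ for 9 of 9, by 1.41 to 2.88. The sheath genes on the 2 KO arrays with IMQ and without alloferon thus stood on either side of WT_IMQ for 7 of 9 members.

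Whether the response to IMQ differed by the genotype label was tested as the WT pair minus the mean of the 3 KO pairs. WT is a single pair here, so the error and p come from the spread among the KO pairs. The IMQ difference was lower in WT than in that mean for 9 of 9 members, by -0.59 ± 0.67 (Krt28) to -2.27 ± 0.88 log2 units (Krt72), with a median of -1.22 against -0.02 over all genes. No member passed in limma (adjusted p = 0.983 to 0.984), and 0 of 22180 genes did (0.0%). The unadjusted p was under 0.05 for 914 genes, 2 members among them. Those were Krt75, at -1.49 ± 0.25 with an unadjusted p = 0.00145, and Krt72. Against the KO pair alone the order turned for 4 members: Krt25, Krt28, Krt71 and Tchh differed by -4.10, -3.41, -5.07 and -4.72 there and by -3.64, -2.96, -4.13 and -4.56 in the WT pair. When 1 array was left out, the difference ran from -1.77 to -0.10 for Krt71, from -1.41 to -0.20 for Krt25, from -1.12 to -0.30 for Krt28, from -1.55 to -0.60 for Krt27 and from -1.91 to -0.41 for Tchh. It ran from -1.97 to -1.10 for Krt26, from -2.83 to -1.62 for Krt72, from -1.62 to -1.03 for Krt73 and from -1.55 to -1.37 for Krt75. Differences of this size are neither shown nor shown to be absent with 2 residual degrees of freedom.

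Alloferon was present on KO arrays only. KO_Allo lay between the other KO arrays without IMQ for 9 of 9 members, with differences of 1.13 to 2.85 log2 units from KO_CTRL and of -0.53 to -1.17 from KO_CTRL-B. KO_IMQ_Allo likewise differed by 0.05 (Krt72) to 4.06 (Krt71) from KO_IMQ and by -0.58 to -2.59 from KO_IMQ_B. The alloferon arrays thus fell within the span of the KO arrays without alloferon for all 9 genes. As a test, the IMQ difference in the KO Allo pair was set against that of the other 3 pairs. It ran from -0.97 ± 0.79 (Krt26) to 0.97 ± 0.55 (Krt28), with 7 of 9 members above 0 and a median of 0.33 against 0.02 over all genes. In limma 0 members passed (adjusted p = 0.745 to 0.993). Over all genes 2 were called lower (0.00902%), Mmp13 and Sprr1b, named after their values were seen, and 0.0% were called higher. These calls set 1 pair against 3, with the spread taken from the other 3, and the array without IMQ in that pair is KO_Allo, which stood apart in Krt6b (11.83). For 6 members the sign of this difference turned when 1 pair was left out.

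Genes that specify or harden the inner root sheath were divided. Of 9 measured in that list, 4 fell and 1 rose over the 4 pairs, with a list median of -0.82. Padi3, which encodes a peptidylarginine deiminase that acts on trichohyalin, fell by 2.30 ± 0.35 log2 units (adjusted p = 0.0294 in limma). It read 10.14, 7.33, 10.37 and 9.63 on WT_CTRL, KO_CTRL, KO_CTRL-B and KO_Allo and 6.77, 6.29, 8.43 and 6.76 on WT_IMQ, KO_IMQ, KO_IMQ_B and KO_IMQ_Allo, with KO_IMQ_B above KO_CTRL as for 8 of the 9 members. The transcription factor genes Dlx3, Gata3 and Cux1 also fell, with differences of -1.11 ± 0.14, -0.82 ± 0.13 and -0.66 ± 0.10. GATA3 specifies the inner root sheath in mouse follicles; its gene read 9.22 to 9.37 on all 4 arrays without IMQ, KO_CTRL included, where the members were lower.

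The riser was Cdsn, the gene of corneodesmosin, which also holds together corneocytes of the epidermis, at 0.69 ± 0.11 (adjusted p = 0.0353 in limma). The transglutaminase genes Tgm3 and Tgm1, whose enzymes cross-link proteins of both sheath and epidermis, measured 2.06 ± 0.47 and 0.88 ± 0.21 (adjusted p = 0.0700 and 0.0824 in limma). Krt74, a type II keratin of the sheath, and Tchhl1, a trichohyalin-like gene, measured -1.90 ± 0.42 and -2.40 ± 0.69 (adjusted p = 0.0661 and 0.124 in limma). In the KO pair they measured -0.11 and 0.50, so that their levels on KO_CTRL, 5.25 and 5.55, were near those on KO_IMQ, as for Krt72.

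A list named for the companion layer and outer root sheath held 5 keratins outside the members, of which 1 rose and 0 fell. Where in the follicle each of these is made was not checked here. Krt16, which keratinocytes also make on wounding, rose by 4.30 ± 0.79 log2 units (adjusted p = 0.0445 in limma). Krt6b and Krt6a measured 5.24 ± 1.18 and 2.73 ± 0.60 (adjusted p = 0.0676 and 0.0640 in limma). Krt17 and Krt79 measured 0.25 ± 0.20 and -0.07 ± 0.17.

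In the other follicle lists, 8 of 15 hair shaft keratins fell (median -1.73), with Krt33a, Krt31, Krt83 and Krt35 at -2.90, -2.54, -2.41 and -2.17. Of 51 keratin-associated protein genes 10 fell (median -1.87), led by Krtap8-1 at -4.18 ± 0.61. Of 11 hair matrix regulators 4 fell (median -0.74): Dsg4, a desmosomal cadherin of the hair shaft, at -2.70 ± 0.26, the Wnt effector gene Lef1 at -1.78 ± 0.20, Hoxc13 at -1.54 ± 0.19 and Msx2 at -1.22 ± 0.20. Of 8 outer root sheath and bulge genes 2 fell (median -0.52), Krt15 at -1.56 ± 0.25 and Sox9 at -0.70 ± 0.12.

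Other cell types of skin moved as well. Melanocyte genes fell in 5 of 7 (median -1.30; Tyr, Tyrp1, Dct and Pmel at -1.60, -1.57, -1.49 and -1.27), sebaceous genes in 3 of 7 (Mc5r, Fads2 and Awat2 at -1.33, -1.13 and -0.82), muscle genes in 4 of 15 (Actn3, Casq1, Myh1 and Mb at -2.32, -1.90, -1.09 and -1.07) and adipocyte genes in 1 of 9 (Car3, -1.02). Macrophage and neutrophil genes rose in 7 of 11 (median 1.33; Itgam, Adgre1, Cxcr2 and Arg1 at 2.23, 2.0, 1.99 and 1.79). In the interfollicular epidermis list 0 of 9 passed (median 0.23), with 6 genes measured above 0 and 3 below it. The 2 of largest size were among those below, Krt77 and Flg2 at -4.28 ± 0.88 and -1.89 ± 0.38 (adjusted p = 0.0566 and 0.0529 in limma). Of 10 dermal papilla and fibroblast genes 0 passed, with Corin and Rspo3 at -0.59 ± 0.22 and -0.47 ± 0.10. Summed linear levels were 1110 to 3717 without IMQ and 526 to 1121 with it for melanocyte genes, 5144 to 8261 and 3117 to 8765 for sebaceous genes, and 2089 to 2634 and 3651 to 6316 for macrophage and neutrophil genes. The part of the fat, melanocyte, sebaceous and immune genes in the fall of the members was not tested.

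Keratin genes beside the members on the chromosome were not all lower. Of 45 measured keratin genes outside the members 10 fell and 1 rose, with a median of -0.26. On chromosome 11, Krt24 on one side of Krt25 fell by 0.65 ± 0.12 (adjusted p = 0.0428 in limma), and Krt10, the suprabasal epidermal keratin on the other side of Krt28, measured 0.07 ± 0.12. On chromosome 15, Krt6b and Krt6a lie between Krt75 and Krt71, and both measured above 0 as given above, while Krt2, next to Krt73, measured -0.38 ± 0.19. On chromosome 3 the neighbours of Tchh were Tchhl1, at -2.40, and Rptn, the gene of the epidermal protein repetin, which rose by 4.19 ± 0.59 (adjusted p = 0.0250 in limma). Neighbours were taken from RefSeq protein-coding genes.

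**Figure D5:**
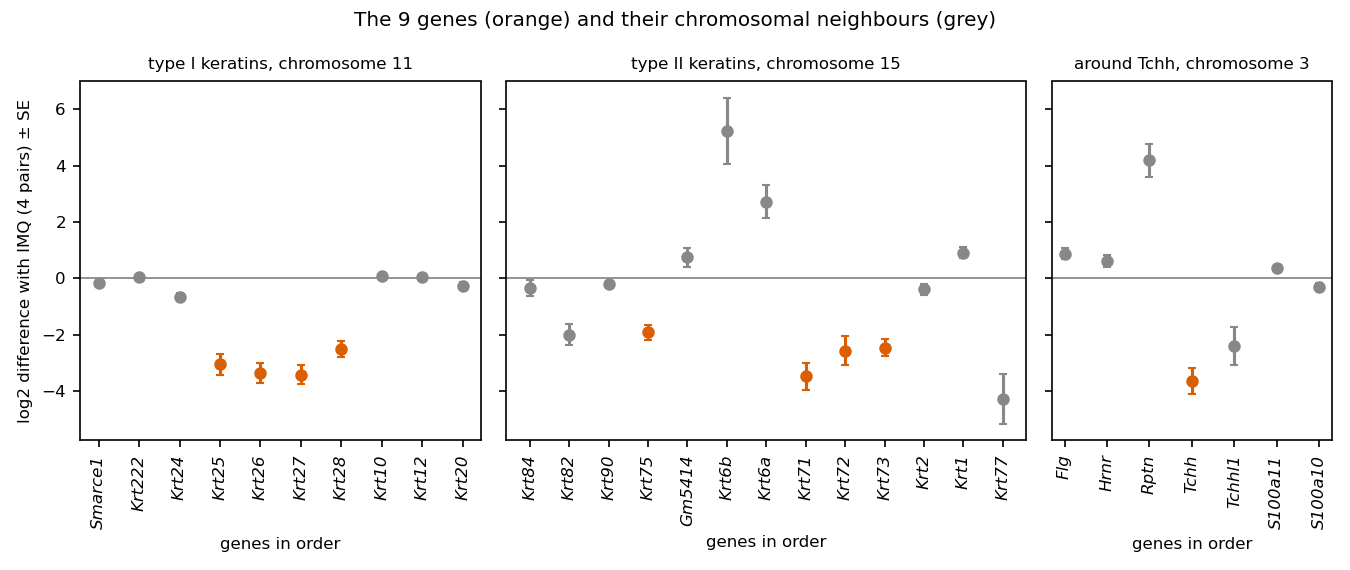
Mean log2 difference with IMQ over 4 pairs, with its moderated standard error from limma (vertical axis), for the 9 genes (orange) and the measured genes beside them in chromosome order (grey). The 4 type I members lie together below 0, between Krt24 at -0.65 and Krt10 near 0. Krt6b, Krt6a and Rptn lie above 0 beside members that lie below it.

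The genes whose pattern over the 8 arrays was most like the mean of the members were, by Pearson correlation among 1123 genes with an SD of at least 0.5, Dsg4 (0.984), Wif1 (0.983), Hoxc13 (0.980), Slc39a10 (0.979), Actbl2 (0.975), Lef1 (0.974), Fads2 (0.973), Lyg2 (0.969), Krt35 (0.969) and Dct (0.965). All 10 were lower with IMQ in 4 of 4 pairs, where 14.3% of all genes were. They were picked for likeness to members that are lower in every pair, so this largely follows from the choice. Wif1, the gene of a secreted Wnt inhibitor, read 8.27, 7.52, 8.27 and 8.16 on WT_CTRL, KO_CTRL, KO_CTRL-B and KO_Allo and 6.89, 6.77, 7.71 and 7.23 on WT_IMQ, KO_IMQ, KO_IMQ_B and KO_IMQ_Allo, with KO_IMQ_B above KO_CTRL as for 8 members. Lyg2, a lysozyme-like gene, had the widest mean difference of these, at -3.34 ± 0.47, with -5.19 in the WT pair and -1.98 in the KO pair. These correlations rest on arrays that differ in IMQ and in tissue content together, and describe likeness only.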

How the data were processed

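Dorsal skin RNA was measured on 8 single-colour Affymetrix arrays. The deposited values are log2 expression levels. Per the submitters' processing notes, the authors used RMA and Affymetrix Power Tools, with R 3.3.2 also named. RMA gives all arrays 1 distribution, so a shift common to most genes is lost, and dim genes are compressed. Of 41345 probe sets, 23521 had 1 gene symbol, 1814 several and 16010 none; the probe set with the highest mean stood for a gene, giving 22180 genes. Tests used limma 3.58.1 in R 4.3.3 (lmFit, eBayes, Benjamini-Hochberg over all genes, called under 0.05). The main model held arm levels plus 1 IMQ effect (3 residual degrees of freedom); the others added an IMQ by WT or IMQ by alloferon term (2). Errors are limma's moderated standard errors, which draw each gene's spread toward that of all genes and here can be smaller than the plain standard error over pairs. Nothing says that arrays hold separate animals, so p-values measure the spread between arrays, which may be technical; their number limits the precision. The fits were also run on simulated data, with noise drawn independently for each gene. The arrays share differences in tissue content, which that noise lacks, so the run does not bear on the calls made here.

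Members and lists were chosen with earlier results of these data known. Named genes are the 9 members; of each other list, the called genes, up to the 4 of largest size, or otherwise the 2 of largest size; sheath, companion layer and neighbouring genes; and the 10 genes most like the members. In the sheath and companion layer lists, genes past these limits were named after their values were seen. Alternatives were probe set averaging, no arm levels, a trended robust prior, median centring, a filter on dim genes, B as a second array, a muscle covariate and each array left out.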

Additional observations from a re-analysis of the deposited data

Results flagged for a closer look

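Of 18 sets of 4 arrays (each member with and without IMQ), 1 held an array far from the others: Krt72 read 7.92 on KO_IMQ_B against 5.40 to 5.81 on the other 3 IMQ arrays. Its gap was 0.837 of the whole range, above Dixon's critical ratio of 0.829, and chance gives such a result in about 5% of sets.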

How the results depend on the processing

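Member differences over the 4 pairs were below 0 in 135 of 135 values from 15 alternatives, from -4.28 to -1.13, and passed the threshold in 63. Most of these signs were fixed in advance. Every member was lower in all 4 pairs, so leaving out a pair could not turn the sign, and several alternatives changed the error alone. Leaving out either array of a pair gave the same fit, so those values and passes are counted for each array. Members called numbered 8 of 9 in the reported fit, 0 without a level per arm (no replicate block, where pairing by arm is dropped), 0 with B read as a second array, 0 with the muscle covariate and 0 to 8 when arrays were left out. It was 6 with a trended robust prior, where Krt71 and Tchh had an adjusted p = 0.0749 and 0.0629, and 9 without dim genes, where Krt72 passed (adjusted p = 0.0455 in limma). Over all genes, 685 were called; 454 were with B read as a second array, 0 with the muscle covariate and 0 to 1307 when arrays were left out. The share of falls among calls was also moved by B read as a second array, with 378 higher and 76 lower against 421 and 264, and by leaving out KO_CTRL or KO_IMQ, with 122 and 138. The WT minus KO comparison gave 0 calls in every alternative run, and the WT arrays could not be left out of it. For the alloferon pair against the others, 2 genes were called, 1 without a level per arm, 33 with a trended robust prior and 0 to 24 when arrays were left out; the alloferon arrays could not be left out. Its member values turned sign when arrays were left out: Krt25 ran from -0.11 to 1.09, Krt27 from -0.31 to 0.78, Krt71 from -0.057 to 1.61, Krt72 from -1.68 to 0.11, Krt75 from -0.19 to 0.67 and Tchh from -0.43 to 1.07. The causes were not tested. A pair is 1 array against 1, and dim levels such as that of Krt26 on KO_IMQ limit the size of a difference.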
